A study of Homo sapiens with 4 samples.

Results

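The human mitochondrial genome encodes 37 genes, and all 37 were found among the 58302 rows of the expression table by their symbols, which start with MT-. They comprise 13 mRNAs, 2 rRNAs and 22 tRNAs, which are described apart. The cells were BLaER1, a human B cell leukaemia line known to carry a hormone-inducible form of the transcription factor C/EBPα, a fusion with part of the oestrogen receptor, so that oestradiol can turn the cells into macrophage-like cells. Differentiated cells (2 libraries) had been kept with 100 nM β-oestradiol, IL-3 and M-CSF for 5 to 6 days. The labels write 10 ng/ml before IL-3 and do not state whether this also holds for M-CSF. Undifferentiated cells (2 libraries) came from the same line in the same culture medium. Both stages are a single leukaemia line. Separate cultures are not stated for replicate libraries, so p-values cover the spread of these 4 libraries, which may be technical in origin.

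Mitochondrial DNA is transcribed from both strands into long precursors that span nearly the whole circle. Most mRNAs and both rRNAs are flanked by tRNAs, and cutting the tRNAs out of the precursor frees the RNAs between them. The mRNAs encode membrane subunits of respiratory complexes I, III and IV and of the ATP synthase, complex V, while nuclear genes encode the other subunits and all proteins that copy, transcribe and process the mitochondrial genome. The rRNAs lie nearest to the start of the heavy-strand transcript and build the mitochondrial ribosome, which translates these mRNAs. In the GENCODE 29 annotation, 12 mRNAs, both rRNAs and 14 tRNAs lie on the plus strand of the reference, and MT-ND6 with 8 tRNAs on the minus strand.

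Several features of these genes bear on how their reads could be assigned, and the sequences that show them are from GENCODE 29 transcripts, written 5′ to 3′. The first pair shows the junctions where neighbouring genes share bases, in capitals: MT-ATP8 and MT-ATP6 share 46 bases, 22.2% of the 207 bases of MT-ATP8, and MT-ND4L and MT-ND4 share 7 bases. Each of these pairs is known to stay on a joint mRNA.
MT-ATP8/MT-ATP6: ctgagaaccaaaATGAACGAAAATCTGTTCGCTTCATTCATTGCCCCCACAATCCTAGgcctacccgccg
MT-ND4L/MT-ND4: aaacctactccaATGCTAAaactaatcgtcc
The next set is MT-ND3, the mRNA with the largest difference between the stages, given by its last 30 bases, and the tRNA genes on either side of it, MT-TG before and MT-TR after. The capital marks the single base of the stop codon that the genome encodes, and the poly(A) tail is known to complete the codon. Of the 13 mRNAs, 6 have a length that is no multiple of 3.
MT-ND3: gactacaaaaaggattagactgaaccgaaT
MT-TG: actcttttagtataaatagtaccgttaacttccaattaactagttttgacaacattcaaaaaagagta
MT-TR: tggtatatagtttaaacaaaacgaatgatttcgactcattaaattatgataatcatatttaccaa
The last pair is a 60-base window, bases 116 to 175, of MT-ATP6 and of its nuclear copy MTATP6P1 on chromosome 1, with differing bases in capitals. The genes were identical at 671 of 681 bases (98.5%), with 141 identical bases in a row at most.
MT-ATP6: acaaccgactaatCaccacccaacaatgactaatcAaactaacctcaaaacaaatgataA
MTATP6P1: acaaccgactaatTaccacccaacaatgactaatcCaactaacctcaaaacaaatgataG

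Values were the authors' TPM, an estimate of transcript abundance per transcript length that sums to the same total in every library. TPM keeps no sequencing depth, so depth is unknown. The 10180 genes that reached 1 TPM in 2 or more libraries were tested with limma on log2(TPM + 1), and a gene is referred to as called where its Benjamini-Hochberg adjusted p over all of them was below 0.05. The stage labels were checked against defining markers. The summed level of 8 macrophage and monocyte markers ranged from 669 to 740 TPM in differentiated and from 6.22 to 7.96 TPM in undifferentiated libraries, and that of 8 B cell markers from 10.8 to 11.7 TPM in differentiated and from 217 to 344 TPM in undifferentiated libraries. Markers of T cells, erythroid cells, fibroblasts and epithelial cells (5 each) did not exceed 0.7 TPM in any library. In such bulk samples, fewer cells of a type and less RNA per cell cannot be told apart.

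In TPM as deposited, both rRNAs were higher in both differentiated libraries, and 1 of them, MT-RNR2, was called (log2 difference 0.77). Of the 13 mRNAs, 0 were called higher, 4 were called lower (MT-ND3, MT-ATP6, MT-CO2 and MT-ND2) and 9 were not called, whereas 41.4% of all tested genes were called, 18.6% higher and 22.8% lower. The summed rRNA level was 4.70 and 3.96 times the summed mRNA level in differentiated libraries, against 1.47 and 1.63 times in undifferentiated libraries. Among the mRNAs MT-ND3 showed the largest difference, being 4.11-fold lower in mean TPM in differentiated cells.

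The classes made up a large part of every library. The 13 mRNAs took 2.74% and 2.89% of the summed TPM in differentiated libraries, against 6.32% and 3.80% in undifferentiated libraries. The 2 rRNAs took 12.9% and 11.5% in differentiated and 9.28% and 6.20% in undifferentiated libraries. Neither class overlapped between the stages, whereas the 37 genes together did, with 15.6% and 14.4% in differentiated and 15.6% and 10.0% in undifferentiated libraries. Protein-coding genes as a whole also took a lower share in differentiated libraries, 12.2% and 13.5% against 23.0% and 15.6% in undifferentiated libraries. The nuclear RNA RN7SK, at 20.9% and 23.5% in differentiated against 35.5% and 41.7% in undifferentiated libraries, moved with the stage too, and its part in these shares was not tested. Within the protein-coding total, the mitochondrial mRNAs amounted to 22.5% and 21.5% in differentiated and to 27.5% and 24.3% in undifferentiated cells, a ratio of means of 0.848 as compared with 0.557 over all rows. The rRNA to mRNA ratio does not depend on how a library was scaled, but the part of library preparation in this ratio was not tested. It averaged 4.33 ± 0.523 in differentiated and 1.55 ± 0.117 in undifferentiated cells (SD, n = 2), 2.80-fold higher in differentiated cells, and 3.04-fold higher without MT-ND6, MT-ATP8 and MT-ND4L. The exact two-sided permutation p was 0.333 for this ratio and for the share of each class, the smallest value possible with 2 libraries per stage.

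**Figure D1:**
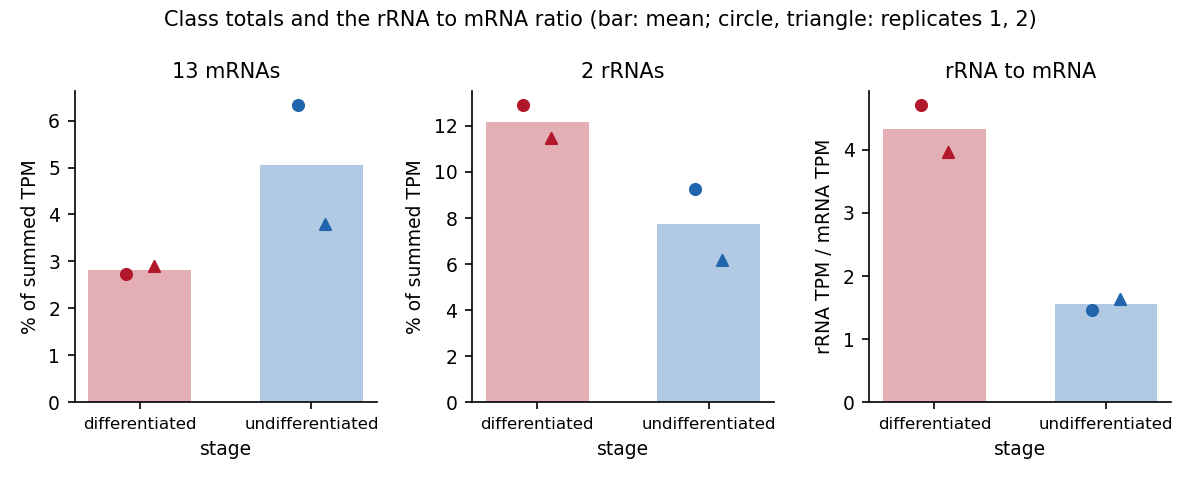
Share of the summed TPM (%) taken by the 13 mRNAs and by the 2 rRNAs, and the ratio of summed rRNA TPM to summed mRNA TPM, by stage. Bars are means and points are the 2 libraries of a stage. The ratio is 4.70 and 3.96 in differentiated and 1.47 and 1.63 in undifferentiated libraries.

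MT-RNR1, the RNA of the small mitochondrial ribosomal subunit, had 70988 and 60639 TPM in differentiated and 57314 and 31762 TPM in undifferentiated libraries. MT-RNR2, the RNA of the large subunit, had 57959 and 54028 TPM in differentiated and 35491 and 30214 TPM in undifferentiated libraries. Both genes were higher in each differentiated library than in either undifferentiated library, a pattern found in 31.0% of all tested genes. They ranked between 2 and 4 of all rows by TPM in every library. The ratio of means was 1.48 for MT-RNR1 (log2 difference 0.62 ± 0.29 SE, adjusted p = 0.101) and 1.70 for MT-RNR2 (0.77 ± 0.24 SE, adjusted p = 0.0187). The MT-RNR2 call was lost when any single library was left out, with an adjusted p of 0.228 and 0.199 without differentiated replicates 1 and 2 and of 0.163 and 0.244 without undifferentiated replicates 1 and 2. It was also lost after median-of-ratios scaling (adjusted p = 0.196). Within a library the rRNAs kept a ratio of MT-RNR1 to MT-RNR2 of 1.22 and 1.12 in differentiated and of 1.61 and 1.05 in undifferentiated cells, ranges that overlapped.

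**Figure D2:**
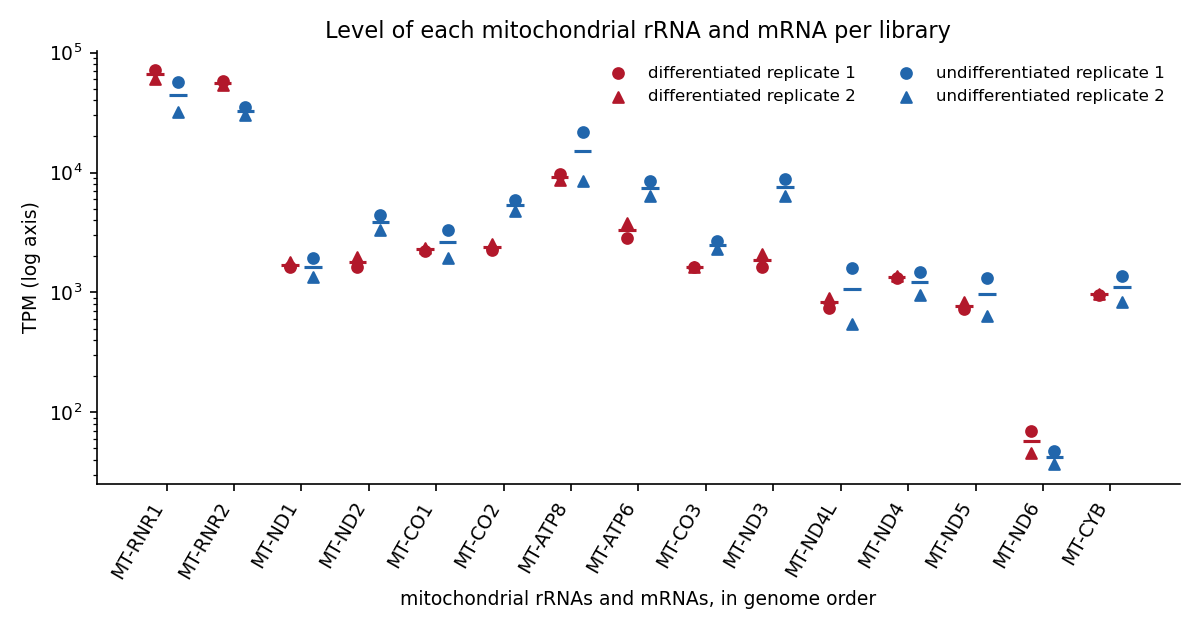
TPM (log axis) of the 2 rRNAs and 13 mRNAs in genome order. Circles and triangles are replicates 1 and 2, horizontal lines are means, differentiated cells are drawn left of undifferentiated cells. The rRNAs lie highest, MT-ND6 lowest, and MT-ND3 is furthest apart between the stages, at 1643 and 2078 TPM in differentiated and 8859 and 6419 TPM in undifferentiated libraries.

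Complex I, the NADH dehydrogenase, takes 7 subunits from the mitochondrial genome. MT-ND3, a small subunit of the part that couples electron transfer to proton pumping, had 1643 and 2078 TPM in differentiated and 8859 and 6419 TPM in undifferentiated libraries. The stages were far apart, as the higher differentiated library did not reach the lower undifferentiated library (log2 difference -2.03 ± 0.30 SE, limma adjusted p = 0.000133). This call held in all 15 alternatives run, scalings and left-out libraries included, with an adjusted p of at most 0.048. MT-ND2, a subunit of the proton-pumping arm, had 1629 and 1957 TPM in differentiated and 4433 and 3316 TPM in undifferentiated libraries (log2 difference -1.10 ± 0.30 SE, adjusted p = 0.00938). Both differentiated libraries lay below both undifferentiated libraries for MT-ND2 as well.

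MT-ND1, which lies close to the ubiquinone site of complex I, did not differ beyond the spread between libraries, with 1617 and 1792 TPM in differentiated and 1949 and 1335 TPM in undifferentiated cells. MT-ND4, a proton-pumping subunit, had 1309 and 1379 TPM in differentiated and 1481 and 944 TPM in undifferentiated cells. The other large pumping subunit, MT-ND5, had 722 and 832 TPM in differentiated and 1311 and 631 TPM in undifferentiated cells. In all 3 of these mRNAs the undifferentiated libraries enclosed the differentiated ones in TPM as deposited. Their log2 differences were 0.08, 0.18 and -0.23 (adjusted p from 0.654 to 0.863). The median-of-ratios factor, a scale over the whole library, was 1.38 and 0.81 in undifferentiated and 0.95 and 0.98 in differentiated libraries. How common an enclosing pattern was among all tested genes was not counted, and the part of this scale in it was not tested. MT-ND4L, which is read from the same mRNA as MT-ND4, had 747 and 903 TPM in differentiated and 1594 and 546 TPM in undifferentiated cells. MT-ND6, the only mRNA from the other strand, was the least abundant, with 69.8 and 45.7 TPM in differentiated and 47.7 and 37.0 TPM in undifferentiated cells. Neither MT-ND4L (log2 difference -0.18, adjusted p = 0.764, but -0.96 with adjusted p = 0.0389 without undifferentiated replicate 2) nor MT-ND6 (0.42, adjusted p = 0.401) was called. The library kit keeps strand, per the labels' protocols, but whether the counting used it is not given in the sources used here. Reads of MT-ND6 and of opposite-strand precursors over it may therefore not have been told apart.

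Complex III, the cytochrome bc1 complex, takes a single subunit from the mitochondrial genome, cytochrome b. MT-CYB had 957 and 970 TPM in differentiated and 1375 and 825 TPM in undifferentiated libraries, and it was not called (log2 difference -0.14 ± 0.33 SE, adjusted p = 0.761). In TPM as deposited, the differentiated libraries lay close together, between the undifferentiated ones.

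Complex IV, cytochrome c oxidase, has its catalytic core from MT-CO1, MT-CO2 and MT-CO3, and these mRNAs differed unequally. MT-CO2, the subunit that receives electrons from cytochrome c, had 2270 and 2553 TPM in differentiated and 5877 and 4818 TPM in undifferentiated libraries, without overlap (log2 difference -1.14 ± 0.28 SE, adjusted p = 0.00557). MT-CO3 had 1621 and 1622 TPM in differentiated and 2664 and 2314 TPM in undifferentiated libraries. Its stages did not overlap, but it was not called (-0.61 ± 0.29 SE, adjusted p = 0.106). MT-CO1, which holds the oxygen-reducing site, had 2201 and 2366 TPM in differentiated and 3347 and 1948 TPM in undifferentiated libraries, which overlapped (-0.16, adjusted p = 0.724).

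ATP synthase takes MT-ATP6, part of its proton channel, and the small MT-ATP8 from a joint mRNA. MT-ATP6 had 2819 and 3793 TPM in differentiated and 8452 and 6316 TPM in undifferentiated libraries, without overlap (log2 difference -1.16 ± 0.29 SE, adjusted p = 0.00651). MT-ATP8 was the most abundant protein-coding row in every library. It had 9810 and 8635 TPM in differentiated and 21856 and 8525 TPM in undifferentiated libraries. As deposited, the undifferentiated libraries enclosed the differentiated ones (-0.57 ± 0.37 SE, adjusted p = 0.241, but -1.25 without undifferentiated replicate 2). The ratio of MT-ATP8 to MT-ATP6, which share an mRNA, was 3.48 and 2.28 in differentiated and 2.59 and 1.35 in undifferentiated libraries, and the stages overlapped. For MT-ND4L to MT-ND4 the ratio was 0.570 and 0.654 in differentiated and 1.08 and 0.578 in undifferentiated libraries. Genes on a joint mRNA would have equal levels per length, so the levels of these short rows are uncertain.

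Over the 13 mRNAs the median log2 difference was -0.23, against -0.14 over all tested genes. Over the 4058 genes with a mean of at least 5 TPM it was -0.42, so the mRNAs did not lie below that background. The 4 called lower were 30.8% of the mRNAs, and 22.8% of all tested genes were called lower. For 5 mRNAs (38.5%) both differentiated libraries lay below both undifferentiated ones, as they did for 39.0% of all tested genes (70.0% did not overlap in either direction). As counts, these shares of lower mRNAs lay near the background. In the other direction 0 mRNAs were called higher and 0 lay above without overlap, against 18.6% and 31.0% of all tested genes. The calls of MT-ND2, MT-CO2 and MT-ATP6 were lost without differentiated replicate 1 (adjusted p = 0.193, 0.143 and 0.189), without differentiated replicate 2 (0.122, 0.108 and 0.089), without undifferentiated replicate 1 (0.0681, 0.0511 and 0.0837) and after median-of-ratios scaling (0.0629, 0.0653 and 0.071). Whether an mRNA lay above or below its undifferentiated level also depended on the scale. Median-of-ratios scaling moved the median of all tested genes to -0.03. Scaling to the nuclear protein-coding total moved it to 0.32 and that of the 13 mRNAs to 0.26, and 63.6% of calls were then higher, against 44.8% as deposited (65.6% with protein-coding genes rescaled alone). The filter on low values then left 12266 genes (11945 with protein-coding genes rescaled alone) in place of 10180, so these figures also cover other genes. In TPM as deposited, the medians of all tested genes and of the 13 mRNAs were 0.15 and 0.22 without undifferentiated replicate 1. They were -0.43 and -0.76 without undifferentiated replicate 2. On the nuclear scale MT-ND3, MT-ND2, MT-CO2 and MT-ATP6 were still called lower, with log2 differences from -1.54 to -0.61. MT-ND1, MT-ND4 and MT-ND6 were called higher on it (0.57, 0.67 and 0.91), as were both rRNAs (1.11 for MT-RNR1 and 1.26 for MT-RNR2).

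**Figure D3:**
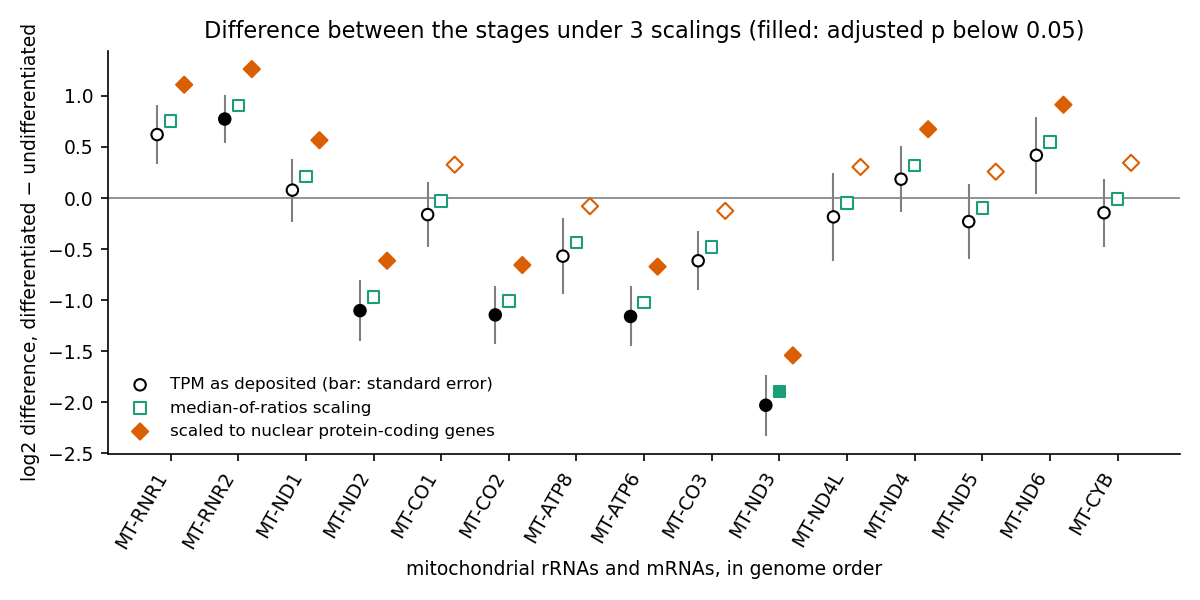
Log2 difference, differentiated minus undifferentiated, of the 2 rRNAs and 13 mRNAs in genome order under 3 scalings; bars are standard errors of the fit to TPM as deposited, and filled symbols have an adjusted p below 0.05. MT-ND3 is filled on all 3 scales, while MT-ND1 lies at 0.08 as deposited and at 0.57 when scaled to nuclear protein-coding genes.

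The make-up of the mRNA pool, each mRNA as a percentage of the summed TPM of the 13, is free of the scaling of the library. MT-ND3 made up 5.99% and 7.18% of the pool in differentiated cells, against 14.0% and 16.9% in undifferentiated cells. MT-ND4 took 4.78% and 4.77% in differentiated libraries, against 2.34% and 2.49% in undifferentiated libraries. MT-ND1 took 5.90% and 6.19% in differentiated and 3.08% and 3.52% in undifferentiated cells. The groups were clearly apart for these mRNAs, with MT-ND3 lower and MT-ND4 and MT-ND1 higher in differentiated cells. MT-CO1 took 8.03% and 8.18% in differentiated and 5.29% and 5.13% in undifferentiated cells, and MT-CYB 3.49% and 3.35% in differentiated and 2.17% in each undifferentiated library. Shares of MT-ND4L, MT-ND5 and MT-ND6 were also higher in both differentiated libraries, and those of MT-ND2, MT-CO2 and MT-ATP6 lower. MT-ATP8 was the largest part of the pool, with 35.8% and 29.9% in differentiated and 34.6% and 22.5% in undifferentiated cells, and with MT-CO3 it overlapped between the stages. These percentages sum to 100% within a library, so a lower share of any mRNA goes with higher shares of others. The ratio of MT-ND3 to MT-ND4, both complex I mRNAs, was not among the planned ratios. It sets the mRNA with the largest difference against one whose share was higher in differentiated cells, a choice that favours a large difference. This ratio was 1.26 and 1.51 in differentiated and 5.98 and 6.80 in undifferentiated cells. On average it was 4.63-fold lower in differentiated cells (exact permutation p = 0.333, the smallest possible).

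**Figure D4:**
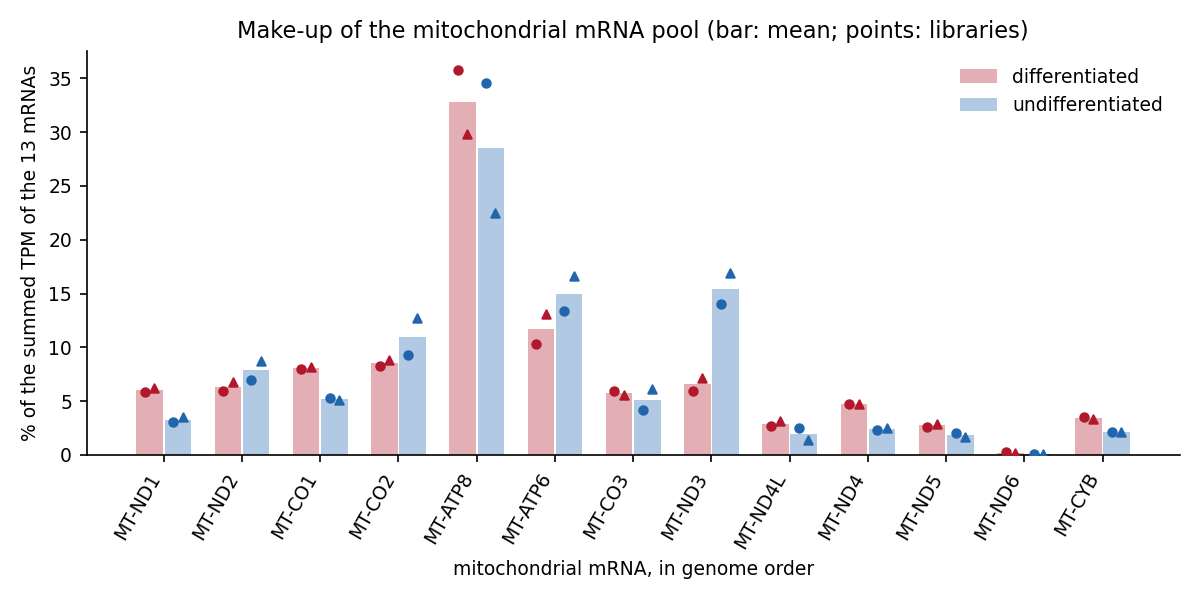
Each mitochondrial mRNA as a percentage of the summed TPM of the 13 mRNAs in its library. Bars are means of the 2 libraries of a stage, and points are libraries. MT-ND3 lies at 5.99% and 7.18% in differentiated and at 14.0% and 16.9% in undifferentiated libraries, and MT-ATP8 has the largest share in every library.

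By complex, complex I mRNAs made up 28.2% and 31.07% of the pool in differentiated and 31.11% and 34.8% in undifferentiated cells, ranges that nearly met. Complex IV mRNAs took 22.2% and 22.6% in differentiated and 18.8% and 23.9% in undifferentiated cells, and ATP synthase mRNAs 46.1% and 43.0% in differentiated and 47.9% and 39.1% in undifferentiated cells. Those of complex IV and of ATP synthase overlapped between the stages. The order of the mRNAs was similar at both stages, with a correlation of log2 mean TPM of r = 0.963 (Spearman's rho = 0.951) across 13 mRNAs that share libraries and precursors. In differentiated cells MT-ATP8, MT-ATP6 and MT-CO2 led, with means of 9222 ± 831, 3306 ± 689 and 2412 ± 200 TPM (SD, n = 2), and MT-CO2 was within the spread of MT-CO1 after it. In undifferentiated cells MT-ATP8 led with 15191 ± 9426 TPM, and its range overlapped that of MT-ND3, in the next place at 7639 ± 1725 TPM. MT-ND3 in turn overlapped MT-ATP6 at 7384 ± 1511 TPM. In differentiated cells MT-ND3 took place 5, within the spread of MT-ND2. Across the mRNAs, which share libraries, the log2 difference was related to transcript length with r = 0.363 (n = 13), and to the order of the 12 plus-strand genes with r = 0.103.

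The 22 tRNAs were listed at 0 TPM in all 4 libraries, and none entered the test. These zeros are not measurements of absence. The tRNA genes are 59 to 75 bases long, and 0 of the 3053 rows whose longest GENCODE 29 transcript has at most 100 bases had a value above 0 in any library. Mitochondrial tRNAs are used by every cell with mitochondrial translation, so no level, ratio or difference can be read for them, MT-TG and MT-TR beside MT-ND3 included. The shortest row with a value above 0 had 102 and 109 bases in differentiated and 128 and 122 bases in undifferentiated libraries. Among rows longer than 100 and up to 150 bases, 200 and 138 of 3554 rows were above 0 in differentiated and 81 and 86 in undifferentiated libraries. Over all rows, 23789 and 20984 were above 0 in differentiated and 18936 and 17437 in undifferentiated libraries, and among the rows longer than 150 and up to 200 bases it was 59 and 46 in differentiated and 51 and 44 in undifferentiated libraries. The shortest tested members were MT-ATP8 (207 bases), MT-ND4L (297) and MT-ND3 (346), and the part of short-row detection in their values was not tested.

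Nuclear DNA holds old copies of mitochondrial genes, and reads of near-identical copies cannot be assigned with certainty. Of 405 such rows, 11 passed the filter on low values, of which 3 were called higher, 2 lower and 6 not, against 18.6% higher and 22.8% lower of all tested genes. MTATP6P1, the most abundant, had 411 and 487 TPM in differentiated and 888 and 768 TPM in undifferentiated libraries (log2 difference -0.88, adjusted p = 0.038, but 0.318 and 0.205 without differentiated replicates 1 and 2, 0.068 without undifferentiated replicate 1 and 0.0999 after median-of-ratios scaling). That was 14.6% and 12.8% of the TPM of MT-ATP6 in differentiated and 10.5% and 12.2% in undifferentiated libraries. MTND2P28 had 42.5 and 64.9 TPM in differentiated and 352 and 195 TPM in undifferentiated libraries (-2.30, adjusted p = 0.000436, but 0.0869 without differentiated replicate 1). Relative to the TPM of MT-ND2, MTND2P28 was at 2.61% and 3.32% in differentiated and 7.94% and 5.88% in undifferentiated libraries, without overlap. Both copies were lower in differentiated cells, as were their mitochondrial counterparts. Of all 50-base windows of MT-ATP6 and MT-ND2, 46.7% and 43.6% occur unchanged in MTATP6P1 and MTND2P28. Adding the copies to their mitochondrial genes left the same number of mRNAs called, 4 lower and 0 higher. As the most abundant copy reached at most 14.6% of its counterpart, this sum could change little. It cannot show how reads were assigned.

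The 3 copies called higher in differentiated cells were all copies of MT-RNR2 (chosen after their values were seen). MTRNR2L12 had 77.5 and 49.2 TPM in differentiated and 4.91 and 2.25 TPM in undifferentiated libraries (log2 difference 3.84 ± 0.42 SE, adjusted p = 1.7e-05). MTRNR2L1 had 9.47 and 9.67 TPM in differentiated and 0.95 and 0.31 TPM in undifferentiated libraries, and MTRNR2L8 had 3.41 and 3.44 TPM in differentiated and 0.71 and 0.54 TPM in undifferentiated libraries. MTRNR2L1 and MTRNR2L8 stayed below 1 TPM in undifferentiated libraries and were tested only because differentiated libraries reached it. A lower call was therefore hardly possible for them, and the count of 3 higher includes both. MTRNR2L12 exceeded 1 TPM in every library. The log2 difference of MT-RNR2 itself was 0.77, and whether the copies differ from it was not tested. No copy exceeded 0.134% of the TPM of MT-RNR2 in any library. Of the 50-base windows of MT-RNR2, 10.1% occur unchanged in MTRNR2L12, 7.42% in MTRNR2L8 and 0.728% in MTRNR2L1.

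For nuclear genes that maintain and express the mitochondrial genome, counts are to be read against the 41.4% of all tested genes that were called, 22.8% lower and 18.6% higher, and against their median log2 difference of -0.14. Without either differentiated replicate, fewer calls were made for transcription, RNA processing, modification, replication and regulators, and also among all tested genes. Without undifferentiated replicate 2, more calls were made in each of these lists and among all tested genes. The shares given here do not hold for those fits. Among 10 genes that transcribe mitochondrial DNA, all tested, 4 were called lower and 0 higher (median log2 difference -0.65). These were 40%, against 22.8% of all tested genes called lower and 41.4% called in either direction. MTERF3, which represses transcription and aids ribosome assembly in mitochondria, had 3.0 and 4.22 TPM in differentiated and 34.5 and 39.0 TPM in undifferentiated libraries (-3.04, adjusted p = 4.04e-05). MRPL12, a ribosomal protein that also binds the mitochondrial RNA polymerase, had 4.18 and 4.85 TPM in differentiated and 17.96 and 21.2 TPM in undifferentiated libraries (-1.90, adjusted p = 0.00123). TFAM, which packages mitochondrial DNA and starts its transcription, and the polymerase gene POLRMT were chosen after their values were seen. TFAM had 3.27 and 2.95 TPM in differentiated and 18.8 and 9.64 TPM in undifferentiated libraries (-1.82, adjusted p = 0.00327). POLRMT had 0.99 and 2.70 TPM in differentiated and 4.14 and 1.58 TPM in undifferentiated libraries, which overlapped (-0.42, adjusted p = 0.462, and 0.02 and 0.07 without differentiated or undifferentiated replicate 1). Without differentiated replicates 1 and 2 the adjusted p was 0.13 and 0.106 for MRPL12 and 0.169 and 0.191 for TFAM.

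Of 24 genes for cutting, polyadenylating, stabilising and degrading mitochondrial RNA, 22 were tested, and 6 were called lower and 0 higher (median -0.67). These were 27.3%, against 22.8% of all tested genes called lower and 41.4% called in either direction. PNPT1, the mitochondrial polynucleotide phosphorylase that degrades RNA, had 1.64 and 2.42 TPM in differentiated and 28.6 and 21.9 TPM in undifferentiated libraries (log2 difference -3.12, adjusted p = 4.07e-05). SLIRP, which binds and stabilises mitochondrial mRNAs together with LRPPRC, had 8.93 and 12.6 TPM in differentiated and 81.5 and 73.4 TPM in undifferentiated libraries (-2.76, adjusted p = 6.99e-05). LRPPRC itself, chosen after its values were seen, had 6.96 and 8.92 TPM in differentiated and 35.5 and 19.4 TPM in undifferentiated libraries (-1.62, adjusted p = 0.00617, but 0.233 and 0.159 without differentiated replicates 1 and 2). Of 27 enzymes that modify mitochondrial tRNAs and rRNAs, 23 were tested and only TRUB2, a pseudouridine synthase, was called, where 41.4% of all tested genes were. It was lower at 1.20 and 1.43 TPM in differentiated against 4.47 and 3.66 TPM in undifferentiated libraries (adjusted p = 0.0226, but 0.374 and 0.317 without differentiated replicates 1 and 2).

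Of 16 genes that copy mitochondrial DNA and supply its nucleotides, 15 were tested, and 2 were called higher and 4 lower, a share of calls close to the 41.4% of all tested genes. TK2, the mitochondrial thymidine kinase, had 3.25 and 5.47 TPM in differentiated and 0.39 and 0.16 TPM in undifferentiated libraries (log2 difference 2.05, adjusted p = 0.000257). RRM2B, a ribonucleotide reductase subunit used outside S phase, had 10.7 and 10.4 TPM in differentiated and 3.78 and 1.56 TPM in undifferentiated libraries (1.73, adjusted p = 0.00478). Among the genes called lower, TOP1MT, the mitochondrial topoisomerase, was at 1.27 and 1.40 TPM in differentiated against 10.1 TPM in each undifferentiated library (-2.25, adjusted p = 0.000379). DNA2, a helicase and nuclease of both nucleus and mitochondria, had 0.21 and 0.31 TPM in differentiated and 4.68 and 3.43 TPM in undifferentiated libraries (-1.99, adjusted p = 0.000172). TK2 reached 1 TPM only in differentiated and DNA2 only in undifferentiated libraries. Each thus passed the filter on low values only through the stage where it was high, which largely set the direction of its call. The counts of calls for this list include both genes. Without differentiated replicates 1 and 2 the adjusted p was 0.227 and 0.221 for RRM2B, 0.0994 and 0.0917 for TOP1MT, and 0.0944 and 0.0776 for DNA2. Of 11 regulators of mitochondrial biogenesis, 8 were tested and 2 called, both lower. These were 25%, against 22.8% of all tested genes called lower and 41.4% called in either direction. MYC, which drives growth and mitochondrial gene expression, had 10.2 and 11.9 TPM in differentiated and 54.9 and 40.1 TPM in undifferentiated libraries (-1.99, adjusted p = 0.000832). GABPB1, a subunit of the factor GABP, had 3.73 and 5.04 TPM in differentiated and 19.0 and 13.1 TPM in undifferentiated libraries (-1.65, adjusted p = 0.00423). Without differentiated replicates 1 and 2 the adjusted p was 0.103 and 0.0803 for MYC and 0.217 and 0.143 for GABPB1.

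The mitochondrial mRNAs have nuclear-encoded partner subunits in the same complexes. All 73 listed partners were tested, and 43 were called lower (58.9%) and 0 higher, with a median log2 difference of -1.12. Over all tested genes 22.8% were called lower and 18.6% higher, with a median of -0.14. Over the 4058 genes with a mean of at least 5 TPM the median was -0.42, with 1187 called lower and 680 higher. In complex I, 23 of 37 were lower (median -1.22). NDUFS5 fell most on the log2(TPM + 1) scale, which orders all partners named here, at 14.9 and 20.7 TPM in differentiated against 138 and 128 TPM in undifferentiated libraries. In complex III, 4 of 9 were lower (median -0.79). UQCRH, which sits beside cytochrome c1, fell most, at 16.6 and 15.01 TPM in differentiated against 127 and 100.4 TPM in undifferentiated libraries. In complex IV it was 6 of 11 (median -1.11), and COX6C fell most, at 50.4 and 50.1 TPM in differentiated against 325 and 267 TPM in undifferentiated libraries. In complex V it was 10 of 16 (median -1.26), and the largest falls were those of the genes listed as ATP5I, at 21.5 and 22 TPM in differentiated against 271 and 192 TPM in undifferentiated libraries, and ATP5J, at 22.4 and 27.99 TPM in differentiated against 278 and 212 TPM in undifferentiated libraries. The next largest falls on that scale in complexes I, III and IV were those of NDUFA12, UQCR10 and COX7C, with log2 differences of -2.47, -1.19 and -2.18 (adjusted p = 0.000378, 0.0255 and 0.000374). The difference between partners and mitochondrial mRNAs was not tested. Without either differentiated replicate, fewer partners and fewer of all tested genes were called, and NDUFA12, UQCR10 and COX7C were not called. NDUFS5, UQCRH, COX6C, ATP5I and ATP5J were called lower in all 15 alternatives run for them.

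**Figure D5:**
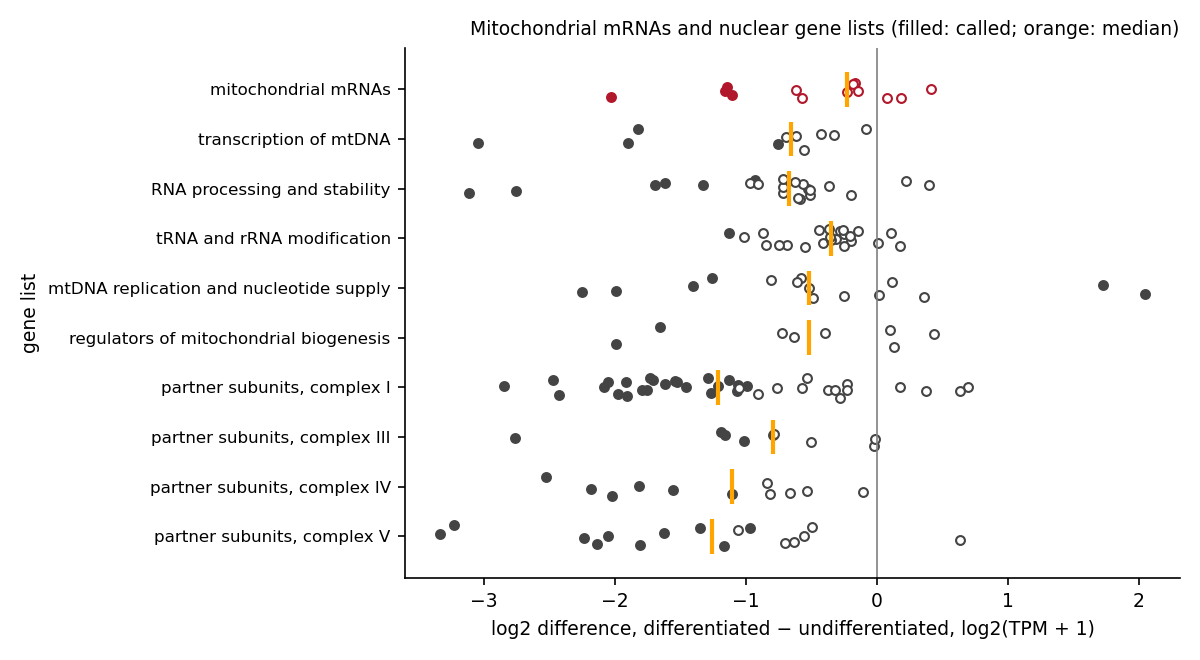
Log2 difference, differentiated minus undifferentiated, on the log2(TPM + 1) scale, of the 13 mitochondrial mRNAs and of the tested members of 9 nuclear gene lists. Each point is a gene, filled where called, and orange lines are medians, which lie at -0.23 for mitochondrial mRNAs and between -1.26 and -0.79 for the partner subunits.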

How the data were processed

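RNA sequencing of total RNA gave 4 libraries, 2 per stage. Per the labels' protocols, libraries were made with the stranded NuGEN Encore Complete kit. The authors deposited TPM in 1 table with a column per library; per the submitters' processing notes, Trimmomatic, STAR and RSEM were used. Versions, read length, genome build and gene models remain unknown (not given in the sources used here), and no gene coordinates are printed. TPM keeps no depth, and no counting error can be given.

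Gene types, lengths, strands and sequences came from GENCODE 29, which held 58039 of the 58302 IDs and need not be the authors' annotation. The test was limma 3.58.1 (R 4.3.3, with trend, two-sided) on log2(TPM + 1), over the 10180 genes that reached 1 TPM in 2 or more libraries. The fit had 2 residual and 10.9 prior degrees of freedom. Log2 differences on this scale understate changes of genes with low TPM. Ratios within a library used SciPy's exact permutation test. Alternatives are in the closing section.

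The members and gene lists were chosen with earlier results of these data known. All rRNAs and mRNAs are named, and of each nuclear list the called genes with the 2 largest rises and 2 largest falls; of the nuclear copies, the 2 most abundant. Other genes were chosen after their values were seen.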

Additional observations from a re-analysis of the deposited data

How the results depend on the processing

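Over 15 alternatives, of which scaling to the nuclear protein-coding total and adding the nuclear copies were chosen after seeing the data, MT-ND3 kept its call and log2 differences from -2.51 to -1.47. Against 4216 genes called as reported, 1260 were called without a filter on low values and 1867 at a mean of at least 5 TPM, and 1271 to 5652 with a library left out. Against 4 mRNAs lower and 0 higher, 1 was lower without the filter and after median-of-ratios scaling; 1 was higher after quantile normalization and 3 in protein-coding genes rescaled alone or to the nuclear total; 1 to 6 were lower with a library left out. Against 1 rRNA, 0 were called without the filter, after median-of-ratios scaling, quantile normalization (which gives 0.00 by construction), rescaling without the most abundant RNAs, eBayes without a trend or any single library, and 2 on the nuclear scale. No tRNA was tested in any alternative.

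Signs turned for MT-ND1 after quantile normalization (-0.24), and for MT-CO1, MT-ND4L, MT-ND5 and MT-CYB in protein-coding genes rescaled alone (0.40, 0.38, 0.33 and 0.42) and on the nuclear scale (0.33, 0.30, 0.26 and 0.34). With a library left out, signs turned within a range of log2 differences from -0.20 to 0.35 for MT-ND1, -0.55 to 0.23 for MT-CO1, -1.25 to 0.11 for MT-ATP8, -0.96 to 0.59 for MT-ND4L, -0.14 to 0.51 for MT-ND4, -0.76 to 0.30 for MT-ND5, -0.51 to 0.22 for MT-CYB and -0.92 to 0.073 for POLRMT (0.02 without differentiated replicate 1). The ends of these ranges were reached without undifferentiated replicate 2 (lowest) and 1 (highest). The cause was not tested.

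For the nuclear lists, calls without the filter numbered 2 for transcription, 2 for RNA processing, 0 for modification, 2 for replication, 1 for regulators, 2 for nuclear copies and 16 for partners. At a mean of at least 5 TPM they numbered 0 for modification and 3 for replication. Modification genes had 5, 6, 2 and 5 calls after median-of-ratios scaling, quantile normalization, protein-coding rescaling and rescaling without the most abundant RNAs. Quantile normalization gave 11 for RNA processing and 4 for regulators, and rescaling without the most abundant RNAs 12 for nuclear copies. With a library left out, calls ranged from 1 to 6 for transcription, 2 to 15 for RNA processing, 0 to 8 for modification, 1 to 10 for replication, 0 to 4 for regulators, 3 to 6 for nuclear copies and 5 to 55 for partners.

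The rRNA to mRNA ratio kept a log2 difference of 1.35 to 1.60 and the MT-ND3 share of -1.37 to -1.09 with a library left out. The labels do not state whether same-numbered libraries are paired, and the correlation of their deviations was -0.024. With the replicate block, 3766 genes were called, 4 mRNAs and 1 rRNA as before and 32 partners, and UQCR10 (adjusted p = 0.062) and MTATP6P1 (0.116) lost their calls. Unknown depth limits what the zeros of short genes can show.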
